A study of Mus musculus with 6 samples.

Results

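The 33 genes described here are Trp53, which encodes the transcription factor p53, its inhibitors Mdm2 and Mdm4, and 30 reported p53 target genes. They were chosen by symbol, and all 33 were found among the 21853 genes of the deposited table. The cells were mouse embryonic fibroblasts (MEF) of the C57BL/6J strain, connective tissue cells grown from embryos, for which the labels give an age of 12 days and an xCT knockout genotype in every sample. There were 3 libraries of cells given red clover extract (RCE) and 3 of cells given water (control). The sources used here give neither the dose nor the length of exposure. xCT, encoded by Slc7a11, brings in cystine for glutathione synthesis, and cells without it are prone to ferroptosis, a death driven by iron and lipid peroxidation. The comparison asked what the extract changes in these cells.

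In an unstressed cell the ubiquitin ligase Mdm2 marks p53 for degradation, and Mdm4 binds p53 and blocks its activity. After DNA damage or other stress p53 escapes both and switches on genes that halt the cell cycle, start apoptosis, repair DNA or alter metabolism. Mdm2 is itself a p53 target, so that p53 limits its own activity. p53 is controlled mostly at the protein level, which messenger RNA values do not show. Cultured MEF are known to hold an active p53 pathway, since growth in culture stresses them.

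Values are FPKM, the number of fragments divided by transcript length and by library depth, which was 45650000 to 58950000 fragments. Slc7a11 was near the floor in every library, at 0.009, 0.017 and 0.007 FPKM in RCE replicates 1 to 3 and 0.013, 0.027 and 0.037 FPKM in control replicates 1 to 3, and its deleted part is not given in the labels. All 15 fibroblast markers averaged at least 1 FPKM, and their summed level was 6478 to 6757 FPKM in RCE libraries, against 7234 to 7493 FPKM in control libraries. Epcam and Cdh1 (epithelium), Pecam1 and Cdh5 (endothelium), Ptprc (blood cells), Sox2 and Gfap (neural cells) and Myod1 (muscle) stayed under 0.1 FPKM in every library. The 6 epithelial markers summed to 1.25 to 2.42 FPKM in RCE libraries and 2.00 to 2.89 FPKM in control libraries. Sums were 3.24 to 4.33 FPKM in RCE libraries and 4.16 to 4.67 FPKM in control libraries for 6 blood markers, and 2.76 to 3.03 FPKM in RCE libraries and 3.17 to 3.53 FPKM in control libraries for 5 endothelial ones. The 4 muscle markers summed to 49.5 to 57.8 FPKM in RCE libraries and 37.7 to 44.3 FPKM in control libraries, nearly all of it Des, and the 4 neural markers to 11.8 to 12.7 FPKM in RCE libraries and 10.1 to 11.0 FPKM in control libraries. The part of these shifts in the results was not tested. Replicate 1 of both groups stood apart from replicates 2 and 3, on a principal component with 36.5% of the variance. No label says whether replicates were separate cultures, so the spread that p-values rest on may be technical.

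With the extract, 15 of the 33 genes were higher, 2 were lower and 16 did not pass the threshold in limma on log2(FPKM + 1), at an adjusted p below 0.05 over the 10870 genes that averaged 1 FPKM or more. In that test 17.6% of all tested genes were higher and 6.77% were lower. The median change of the members was 0.20, against 0.08 over all tested genes, and all changes below are RCE minus control on that log2 scale, which understates the change of low genes. The largest increases were in Pidd1, Ckap2, Gtse1, Ercc5, Eda2r and Plk2, and the 2 genes that fell were Plk3 and Btg2. The best known reporters of p53 activity, Mdm2, Cdkn1a, Bax and Bbc3, did not pass the threshold.

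In 20 of the 33 genes all RCE libraries lay above all control libraries, and in 2 all lay below, where 31.2% and 10.9% of all tested genes did so. The direction was upward in 30 of 33 members, beside 70.2% of all tested genes. In 27 members each RCE library lay above the control library of its own number, beside 56.5% of all tested genes. A fit with replicate number as a block called 24 members higher and 2 lower, beside 46.6% and 15.9% of all tested genes. Median-of-ratios scaling, which brought the median change of all genes to 0.00, gave 8 higher and 2 lower members, beside 8.50% and 10.0% of all tested genes, and a member median of 0.12. The count of higher members was 6 without RCE replicate 2, 9 without RCE replicate 3, 6 without control replicate 2 and 7 without control replicate 3. The count of lower members was 1 without any of these libraries or RCE replicate 1. Counts over all tested genes also moved with 1 library left out, over the range given in the last section. Such counts of the members here and of the related lists below stand beside that range. The calls of Pidd1, Ckap2, Gtse1, Ercc5, Eda2r, Plk2 and Plk3 held without each of the 6 libraries in turn and under both scalings.

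**Figure D1:**
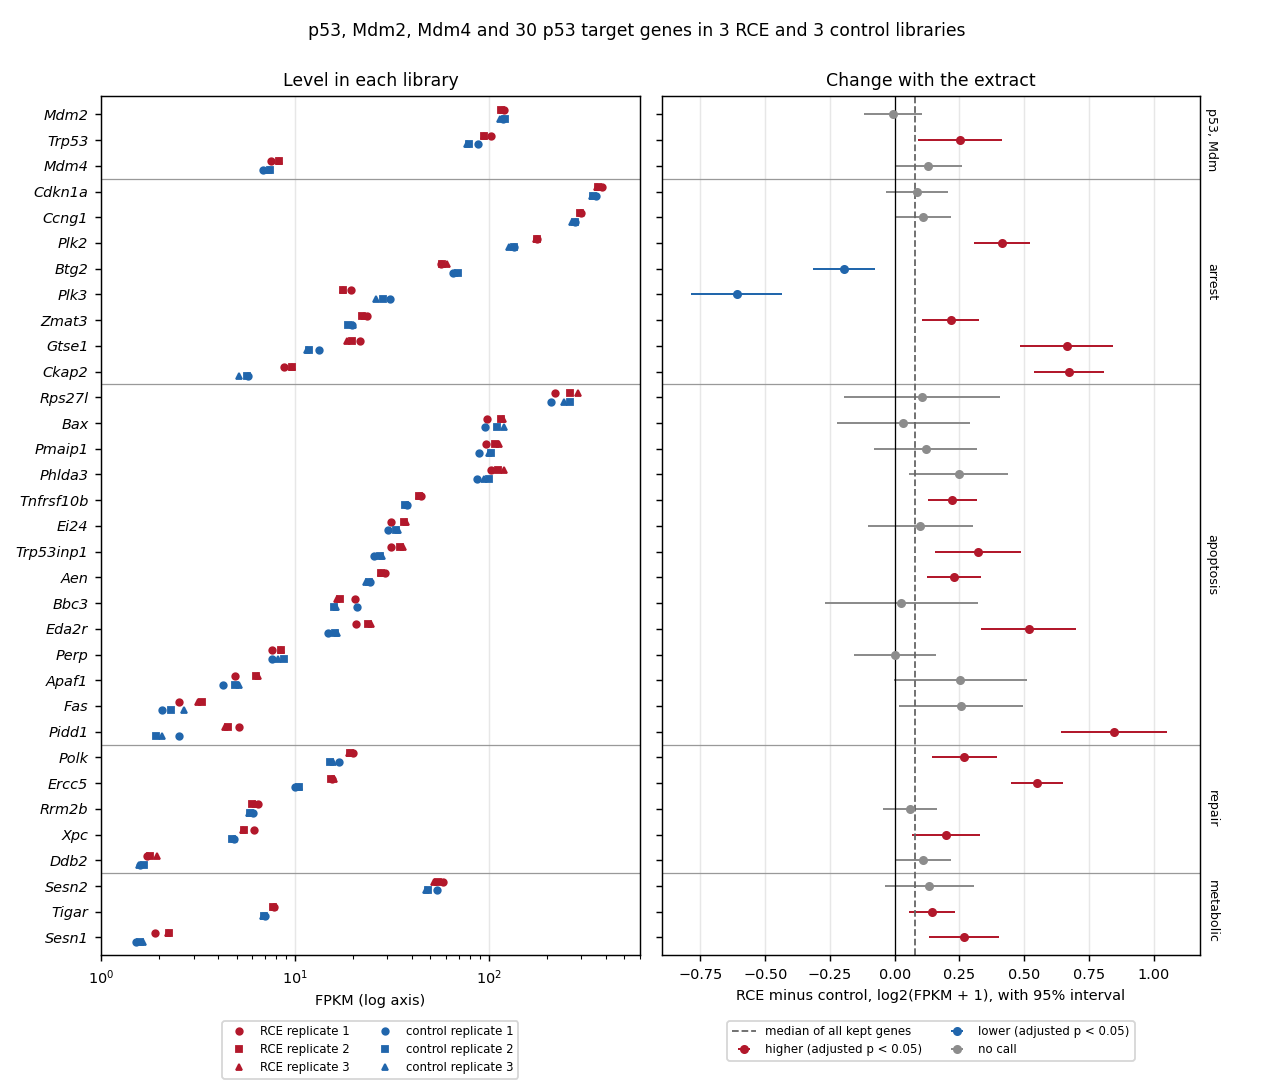
Level of each of the 33 genes in every library (left, FPKM on a log axis, RCE in red above control in blue, marker shape by replicate number) and the limma change with its 95% interval (right, RCE minus control on the log2(FPKM + 1) scale, dashed line at the median of all tested genes), ordered by role and by control level. The 15 genes called higher are in red and the 2 called lower, Btg2 and Plk3, in blue, while Mdm2, Bax, Bbc3 and Perp sit close to 0.

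The members spanned a wide range of levels in both groups. Cdkn1a had the highest level, at 369 ± 11.3 FPKM in RCE libraries and 347 ± 8.41 FPKM in control libraries (SD, n = 3 each). Ccng1, Rps27l, Plk2 and Mdm2 followed in that order in both groups, all above 100 FPKM in every library. Ddb2, a damage sensor, had the lowest level in RCE libraries, at 1.82 ± 0.113 FPKM, and Sesn1 in control libraries, at 1.58 ± 0.0635 FPKM (SD, n = 3 each). About 179 to 251 fragments per library lay behind Ddb2 on its longest annotated transcript, and 182 to 319 behind Fas, the fewest among the members.

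p53 acts by binding to pairs of 10-base half-sites, each with a 4-base core of the form CNNG in which both N are A or T. RefSeq windows of 300 bases ran from 250 before a transcription start to 50 after it (GRCm38.p6), and 25 of the 33 genes were covered. Pmaip1 was left out by a filter on the members that was not applied to all genes with a window. Its promoter was therefore not searched, and the shares of members and of all genes rest on different rules. The windows were searched for 2 such cores with 6 bases between them, a form that covers both strands in one search. It was found in windows of 9 of the 25 genes, beside 8.19% of all 27025 genes with a window. The 9 stretches of 20 bases are shown because they let the letters be set beside the changes that follow, with the cores in capitals, 5′ to 3′ on the strand of the gene.
Trp53, chr11:69580284-69580303 (+): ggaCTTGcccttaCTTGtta
Cdkn1a, chr17:29090928-29090947 (+): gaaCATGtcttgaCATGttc
Plk2, chr13:110395038-110395057 (+): gctCTTGctcgcaCAAGcga
Gtse1, chr15:85859945-85859964 (+): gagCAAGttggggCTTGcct
Ckap2, chr8:22186003-22186022 (-): agaCATGtcctgaCTTGtca
Bbc3, chr7:16309486-16309505 (+): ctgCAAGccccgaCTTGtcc
Aen, chr7:78895937-78895956 (+): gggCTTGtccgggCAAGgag
Rps27l, chr9:66946296-66946315 (+): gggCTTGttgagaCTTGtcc
Tigar, chr6:127109746-127109765 (-): ggtCTAGctctggCAAGact

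The consensus half-site also asks for 3 purines before the core and 3 pyrimidines after it. Of the 12 flanking bases in a stretch, 11 matched this in Cdkn1a, Gtse1 and Rps27l, 10 in Ckap2, 9 in Trp53, Bbc3, Aen and Tigar and 7 in Plk2. Of the 9 genes 6 were higher with the extract and 3 had no call. Of the other 16 genes with a window 5 were higher, 2 were lower and 9 had no call. Over all tested genes 17.6% were higher and 6.77% lower. At least 1 full consensus half-site was found in 12 of the 25 genes, beside 9.55% of all genes with a window. Of these Aen, Ckap2, Gtse1, Polk, Sesn1 and Trp53 were higher, while Bax, Ccng1, Cdkn1a, Ei24, Mdm2 and Rps27l had no call. The share of calls among all genes with either form was not computed, and a link between the letters and the changes was not tested. The letters TTTGAA, on either strand, were also searched for. They were found in 5 of the 25 genes (Aen, Bax, Ckap2, Ercc5 and Fas), beside 20.2% of all genes with a window. Cdkn1a has 2 annotated starts in this table, and its pair lay 51 to 32 bases before the distal one. The 250 bases before that start are shown with the cores in capitals (chr17:29090729-29090978, + strand, GRCm38.p6).
Cdkn1a distal start: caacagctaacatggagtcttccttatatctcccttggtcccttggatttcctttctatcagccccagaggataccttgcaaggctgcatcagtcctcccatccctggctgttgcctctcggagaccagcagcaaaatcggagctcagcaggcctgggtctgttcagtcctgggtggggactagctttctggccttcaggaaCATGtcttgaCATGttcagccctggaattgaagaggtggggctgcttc
These matches describe letters and do not show that p53 was bound. Pairs outside the windows, or with extra bases between the half-sites, were not searched for, so a gene without a match may have a site elsewhere.

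Trp53 rose modestly with the extract, while its inhibitors Mdm2 and Mdm4 did not pass the threshold. Trp53 (ENSMUSG00000059552, chromosome 11, 69580359 to 69591873 on mm10) was at 102, 94.5 and 93.9 FPKM in RCE replicates 1, 2 and 3 and at 87.9, 79.2 and 77.0 FPKM in control replicates 1, 2 and 3. All RCE libraries lay above all control libraries, and replicate 1 was the highest of its group in both. The means were 96.96 ± 4.77 FPKM in RCE libraries and 81.4 ± 5.74 FPKM in control libraries (SD, n = 3 each), a change of 0.25 (SE 0.07, limma adjusted p = 0.0399, 1.19-fold). Under median-of-ratios scaling it was not called (0.17, adjusted p = 0.190). The call was also lost without RCE replicate 1, 2 or 3 or control replicate 2 or 3, one at a time (adjusted p = 0.0727 to 0.132), with no filter on low values (0.0512) and with a minimum mean of 5 FPKM (0.0516).

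Mdm2 (ENSMUSG00000020184, chromosome 10, 117688875 to 117710758) was abundant and nearly level between the groups. It was at 119.7, 115.1 and 116.9 FPKM in RCE replicates 1, 2 and 3, and at 118.8, 120.7 and 113.6 FPKM in control replicates 1, 2 and 3. The groups overlapped, and the change was -0.01 with a 95% interval of -0.12 to 0.11 (limma adjusted p = 0.952), and adjusted p = 0.885 with the replicate block. Mdm2 has a basal and a p53-driven promoter, whose transcripts a value per gene does not tell apart. Mdm4 was at 7.99 ± 0.430 FPKM in RCE libraries and 7.21 ± 0.286 FPKM in control libraries (SD, n = 3 each), a change of 0.13 (adjusted p = 0.125, and 0.00621 with the block). Part of the Mdm4 sequence, 7.3% of its 50-base words, also stands in other transcripts, mainly a pseudogene.

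**Figure D2:**
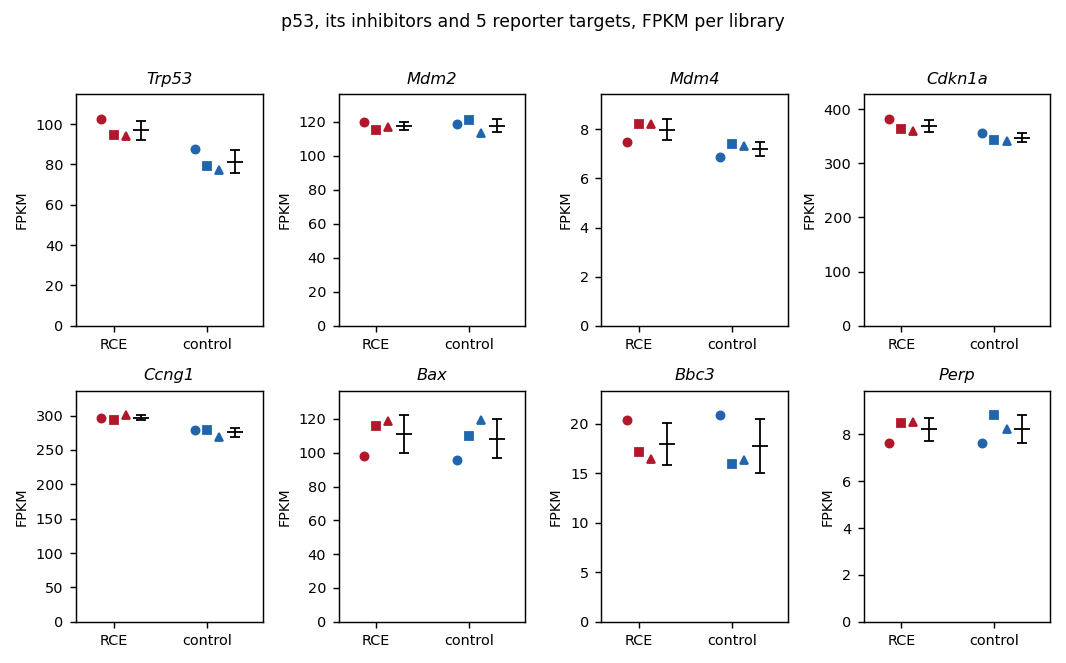
FPKM in each library of Trp53, Mdm2, Mdm4 and 5 targets often read as reporters of p53 activity (RCE left in red, control right in blue, marker shape by replicate number, black bars mean ± SD, axes from 0). RCE points lie above control points for Trp53, Mdm4, Cdkn1a and Ccng1, and the groups overlap for Mdm2, Bax, Bbc3 and Perp.

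Genes of cell cycle arrest and cell cycle control moved in both directions. Of 8 members, 4 were higher (Ckap2, Gtse1, Plk2 and Zmat3), 2 were lower (Plk3 and Btg2) and 2 did not pass the threshold (Cdkn1a and Ccng1), with a median change of 0.16 against 0.08 over all tested genes. Over all tested genes 17.6% were higher and 6.77% lower. Blocking on replicate number gave 6 higher and 2 lower genes among the 8, beside 46.6% and 15.9% of all tested genes. Median-of-ratios scaling gave 3 higher and 2 lower, beside 8.50% and 10.0% of all tested genes. The groups did not overlap in any of the 8 genes. All RCE libraries lay above all control libraries in 6 and below them in 2, beside 31.2% and 10.9% of all tested genes.

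Cdkn1a (ENSMUSG00000023067, chromosome 17, 29090976 to 29100727) encodes p21, the inhibitor of cyclin-dependent kinases through which p53 halts the cycle. It was at 381.8, 364.2 and 360.5 FPKM in RCE replicates 1, 2 and 3, and at 356.9, 343.7 and 341.3 FPKM in control replicates 1, 2 and 3. RCE libraries lay just above control libraries in every pair, and the change was 0.09 with a 95% interval of -0.03 to 0.21 (limma adjusted p = 0.260). With the replicate block it passed (adjusted p = 0.0229), and under median-of-ratios scaling it was at 0.00. Ccng1, a cyclin that forms a feedback loop with Mdm2, was at 297 ± 3.00 FPKM in RCE libraries and 276 ± 6.35 FPKM in control libraries (SD, n = 3 each), a change of 0.11 (adjusted p = 0.134, and 0.0121 with the block).

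The Polo-like kinases Plk2 and Plk3 went opposite ways. Plk2 (ENSMUSG00000021701, chromosome 13, 110395046 to 110400844), a kinase of centriole duplication and the stress response, was at 177.0, 176.5 and 175.9 FPKM in RCE replicates 1, 2 and 3 and at 135.0, 134.1 and 127.8 FPKM in control replicates 1, 2 and 3. RCE libraries were almost equal to each other and all above the control ones, with a change of 0.41 (SE 0.04, limma adjusted p = 0.00224, 1.33-fold). Plk3 (ENSMUSG00000028680, chromosome 4, 117128655 to 117133963), a stress-activated kinase that phosphorylates p53, was at 19.6, 17.8 and 17.7 FPKM in RCE replicates 1, 2 and 3 and at 31.0, 28.4 and 26.3 FPKM in control replicates 1, 2 and 3. All RCE libraries lay below all control libraries, and the change was -0.61 (SE 0.07, adjusted p = 0.00309). Btg2, an antiproliferative regulator of messenger RNA decay, fell less, to 58.6 ± 2.15 FPKM in RCE libraries against 67.2 ± 2.248 FPKM in control libraries (SD, n = 3 each, change -0.20, adjusted p = 0.0339). Its call ended without RCE replicate 1, 2 or 3 or control replicate 2 or 3, one at a time (adjusted p = 0.0618 to 0.133).

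Ckap2 and Gtse1, both known as genes of dividing cells, had nearly equal changes. Ckap2 (ENSMUSG00000037725, chromosome 8, 22168160 to 22185819), a protein of the mitotic spindle, was at 8.82, 9.61 and 9.63 FPKM in RCE replicates 1, 2 and 3 and at 5.70, 5.66 and 5.14 FPKM in control replicates 1, 2 and 3. The lowest RCE library was well above the highest control library (change 0.67, SE 0.06, limma adjusted p = 9.03e-04, 1.70-fold). Gtse1 (ENSMUSG00000022385, chromosome 15, 85859745 to 85876573), a microtubule protein that restrains p53 in G2, was at 21.6, 19.6 and 18.6 FPKM in RCE replicates 1, 2 and 3 and at 13.2, 11.8 and 11.6 FPKM in control replicates 1, 2 and 3. Here too the groups stood apart (change 0.67, SE 0.07, adjusted p = 0.00250, 1.63-fold). Zmat3, an RNA-binding zinc finger protein that regulates splicing, was at 22.8 ± 0.696 FPKM in RCE libraries and 19.5 ± 0.593 FPKM in control libraries (SD, n = 3 each, change 0.22, adjusted p = 0.0184). Its call was lost under median-of-ratios scaling (adjusted p = 0.125), and without RCE replicate 2 or 3 or control replicate 2 or 3 (adjusted p = 0.0579 to 0.0764).

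**Figure D3:**
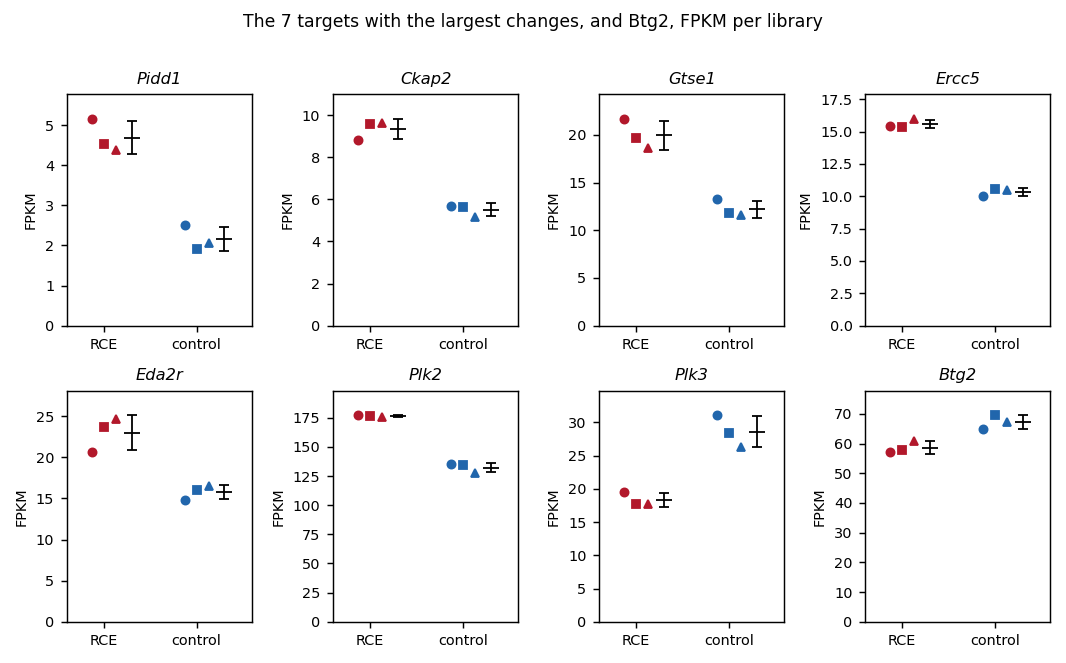
FPKM in each library of the 7 targets with the largest changes and of Btg2 (RCE left in red, control right in blue, marker shape by replicate number, black bars mean ± SD, axes from 0). RCE points lie above control points in Pidd1, Ckap2, Gtse1, Ercc5, Eda2r and Plk2 and below them in Plk3 and Btg2.

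Among 14 genes of apoptosis and survival, 5 were higher, none was lower and 9 did not pass the threshold in limma (median change 0.22, against 0.08 over all tested genes). Over all tested genes 17.6% were higher and 6.77% lower. Blocking on replicate number gave 10 higher genes among the 14 and none lower, beside 46.6% and 15.9% of all tested genes. Median-of-ratios scaling gave 3 higher and none lower, beside 8.50% and 10.0% of all tested genes. The members of this group called without block or scaling were Pidd1, Eda2r, Trp53inp1, Aen and Tnfrsf10b. Of these Eda2r and Tnfrsf10b are receptors of the tumour necrosis factor family. The effectors that act on the mitochondrion, Bax, Bbc3 and Pmaip1, were not among them.

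Pidd1 (ENSMUSG00000025507, chromosome 7, 141438113 to 141444025) had the largest change of all members. It encodes the scaffold of the PIDDosome, which activates caspase-2 and in doing so can cleave Mdm2. It was at 5.15, 4.53 and 4.38 FPKM in RCE replicates 1, 2 and 3, and at 2.51, 1.92 and 2.06 FPKM in control replicates 1, 2 and 3. Every RCE library lay above every control library, and replicate 1 was the highest of both groups. The change was 0.85 (SE 0.09, limma adjusted p = 0.00170, 2.17-fold).

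Eda2r (ENSMUSG00000034457, chromosome X, 97333840 to 97377216), the receptor for ectodysplasin A2, was at 20.7, 23.7 and 24.6 FPKM in RCE replicates 1, 2 and 3 and at 14.8, 16.02 and 16.4 FPKM in control replicates 1, 2 and 3. Replicate 1 was the lowest of both groups and the groups did not overlap (change 0.52, SE 0.08, limma adjusted p = 0.00600, 1.46-fold). Tnfrsf10b, the mouse TRAIL receptor, was at 43.9 ± 0.554 FPKM in RCE libraries and 37.5 ± 0.587 FPKM in control libraries (SD, n = 3 each, change 0.22, adjusted p = 0.0108). Fas, the receptor of Fas ligand, had overlapping groups, with 2.52, 3.33 and 3.16 FPKM in RCE replicates 1, 2 and 3 and 2.07, 2.31 and 2.67 FPKM in control replicates 1, 2 and 3. It passed with the replicate block (change 0.26, adjusted p = 0.112, and 0.00256 with the block) and without RCE replicate 1 (0.35, adjusted p = 0.0304).

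Trp53inp1, a stress protein that promotes p53 phosphorylation and autophagy, was at 34.1 ± 2.60 FPKM in RCE libraries and 27.0 ± 1.26 FPKM in control libraries (SD, n = 3 each, change 0.32, limma adjusted p = 0.0194). Aen, a nuclease of apoptotic cells, was at 28.2 ± 0.798 FPKM in RCE libraries and 23.9 ± 0.541 FPKM in control libraries (change 0.23, adjusted p = 0.0135). In both genes all RCE libraries lay above all control libraries. The call of Trp53inp1 ended without RCE replicate 2 or 3 or control replicate 2 or 3 (adjusted p = 0.0543 to 0.0845), that of Aen without RCE replicate 2 or control replicate 2 or 3 (0.0513 to 0.0606), and that of Tnfrsf10b without RCE replicate 2 or control replicate 2 (0.0593 and 0.0542). With median-of-ratios scaling Aen (adjusted p = 0.0872) and Tnfrsf10b (0.0762) did not pass.

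Bax, the protein that permeabilises the outer mitochondrial membrane, was at 98.2, 116.1 and 118.6 FPKM in RCE replicates 1, 2 and 3 and at 95.9, 110.1 and 119.3 FPKM in control replicates 1, 2 and 3. Replicate 1 was the lowest and replicate 3 the highest in both groups, and the change was 0.03 with a 95% interval of -0.22 to 0.29 (limma adjusted p = 0.855). Bbc3, which encodes the BH3-only protein PUMA, was at 20.4, 17.2 and 16.4 FPKM in RCE replicates 1, 2 and 3 and at 20.8, 15.9 and 16.4 FPKM in control replicates 1, 2 and 3, with replicate 1 highest in both groups (change 0.02, interval -0.27 to 0.32, adjusted p = 0.910). Pmaip1, which encodes the BH3-only protein NOXA, was at 106 ± 8.44 FPKM in RCE libraries and 97.1 ± 7.13 FPKM in control libraries (SD, n = 3 each, change 0.12, adjusted p = 0.339, and 0.00739 with the replicate block). The exons of Bax overlap those of another annotated gene on the same strand over 12.2% of their length.

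The other 5 apoptosis genes also lacked a call. Apaf1, the core of the apoptosome, had a change of 0.25 (limma adjusted p = 0.137, and 8.76e-04 with the block), and Phlda3, a repressor of AKT signalling, one of 0.25 (0.0687, and 6.40e-04 with the block). Both passed without RCE replicate 1 (Apaf1 0.36, adjusted p = 0.0209, and Phlda3 0.30, adjusted p = 0.0375). Ei24, a protein of the endoplasmic reticulum, had a change of 0.10 (adjusted p = 0.436, and 0.0152 with the block). Rps27l, a ribosomal protein paralogue that binds Mdm2, had one of 0.11 (adjusted p = 0.584, and 0.0598 with the block), with 11.2% of its 50-base words also in other transcripts. Perp, a membrane protein of desmosomes and of p53-dependent death, was at 8.21 ± 0.50 FPKM in RCE libraries and 8.21 ± 0.596 FPKM in control libraries (SD, n = 3 each, change 0.00, 95% interval -0.16 to 0.16, adjusted p = 0.997).

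Of 5 DNA repair genes 3 were higher and none was lower in limma, beside 17.6% and 6.77% of all tested genes. The other 2 did not pass the threshold, and the median change of the 5 was 0.20. Ercc5 (ENSMUSG00000026048, chromosome 1, 44147744 to 44181260), which encodes the XPG endonuclease of nucleotide excision repair, changed most. It was at 15.5, 15.4 and 15.95 FPKM in RCE replicates 1, 2 and 3, and at 9.98, 10.5 and 10.5 FPKM in control replicates 1, 2 and 3. Spread within each group was small beside the gap between them (change 0.55, SE 0.04, limma adjusted p = 6.59e-04, 1.51-fold). Polk, a DNA polymerase that copies past damaged bases, was at 19.4 ± 0.483 FPKM in RCE libraries and 15.9 ± 0.882 FPKM in control libraries (SD, n = 3 each, change 0.27, adjusted p = 0.0141).

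The 2 damage sensors of nucleotide excision repair changed less than Ercc5. Xpc was at 6.15, 5.47 and 5.38 FPKM in RCE replicates 1, 2 and 3 and at 4.85, 4.73 and 4.85 FPKM in control replicates 1, 2 and 3 (change 0.20, limma adjusted p = 0.0436). Ddb2 was at 1.73, 1.78 and 1.95 FPKM in RCE replicates 1, 2 and 3 and at 1.59, 1.67 and 1.58 FPKM in control replicates 1, 2 and 3 (change 0.11, adjusted p = 0.121). Of the Ddb2 exons 23.8% overlap Acp2 on the opposite strand, whose reads cannot be told apart if strand was not used in counting. Rrm2b, the ribonucleotide reductase subunit that supplies nucleotides for repair, had a change of 0.06 (95% interval -0.04 to 0.16, adjusted p = 0.363). The call of Xpc ended without any 1 of the 6 libraries (adjusted p = 0.0565 to 0.134) and with median-of-ratios scaling (0.214) or quantile normalization (0.369), as well as with no filter on low values (0.0705) or a minimum mean of 5 FPKM (0.0557). That of Polk ended without RCE replicate 2 or control replicate 2 or 3 (0.0570 to 0.0631) and with median-of-ratios scaling (0.0753).

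Of the 3 metabolic targets Sesn1 and Tigar were higher and Sesn2 did not pass the threshold, where 17.6% of all tested genes were higher. Sesn1, a sestrin that restrains the growth kinase complex mTORC1, was at 1.89, 2.24 and 2.21 FPKM in RCE replicates 1, 2 and 3 and at 1.52, 1.58 and 1.65 FPKM in control replicates 1, 2 and 3 (change 0.27, SE 0.06, limma adjusted p = 0.0189, 1.33-fold). Tigar, a phosphatase that lowers fructose-2,6-bisphosphate and so slows glycolysis, was at 7.78, 7.69 and 7.84 FPKM in RCE replicates 1, 2 and 3 and at 7.04, 6.91 and 6.87 FPKM in control replicates 1, 2 and 3 (change 0.14, SE 0.04, adjusted p = 0.0337). In both genes the groups stood apart, by a small margin in FPKM. Sesn2, the leucine-sensing sestrin that ATF4 also induces, was far more abundant than Sesn1, at 54.9 ± 3.09 FPKM in RCE libraries and 50.01 ± 3.78 FPKM in control libraries (SD, n = 3 each, change 0.13, adjusted p = 0.222, and 0.00254 with the replicate block). The call of Sesn1 ended with quantile normalization (adjusted p = 0.124) and without RCE replicate 2 or 3 or control replicate 2 or 3 (0.0547 to 0.0792). That of Tigar ended without any 1 of the 6 libraries (0.0560 to 0.119), with median-of-ratios scaling (0.285) and with quantile normalization (0.371).

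Of 28 tested upstream regulators of p53 (of 30 listed, Trp63 and Trp73 being too low) 4 were higher and none lower, with a median change of 0.14, where 17.6% and 6.77% of all tested genes were called. Under the block 19 were higher and 1 lower, beside 46.6% and 15.9% of all tested genes. Median-of-ratios scaling gave 2 higher and none lower, beside 8.50% and 10.0%, and 2 were higher without RCE replicate 2 or 3 or control replicate 2 or 3. The 4 were Ppm1d, a phosphatase that switches p53 off and is its target (6.49 ± 0.0992 FPKM in RCE libraries and 5.15 ± 0.176 FPKM in control libraries, SD, n = 3 each, change 0.29, limma adjusted p = 0.00528), the checkpoint kinase Chek1 (0.29, 0.00347), the deubiquitinase Usp7, which stabilises both Mdm2 and p53 (0.16, 0.0235), and the kinase Dyrk2 (0.22, 0.0380). Chek1 is counted in the list of cell cycle genes below too. Of 36 tested p53 targets outside the members (of 39 found of 40 listed) 9 were higher and 4 lower, with a median change of 0.12. The shares over all tested genes were 17.6% and 6.77%. With the block 20 of these targets were higher and 7 lower, beside 46.6% and 15.9% of all tested genes. With median-of-ratios scaling 3 were higher and 6 lower, where the balance of all tested genes also turned, to 924 higher and 1090 lower. The higher count of this list was 3 without RCE replicate 2 or control replicate 2 or 3 and 5 without RCE replicate 3, and 2 were lower without any of these 4. The smallest p belonged to Cgref1, a growth regulator, which was lower (-0.53, adjusted p = 0.00157), the peptide transporter Tap1 (0.53, 0.00329), the ephrin receptor Epha2, lower (-0.30, 0.00333), and the microtubule protein Psrc1 (0.46, 0.00419).

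p53 also lowers many cell cycle genes, acting through p21 and the DREAM repressor complex. Of 27 tested genes of that kind (of 30 listed) 21 were higher with the extract and none was lower, beside 17.6% and 6.77% of all tested genes. The median change of the 27 genes was 0.35. The genes with the smallest p were Mcm3 (0.56, limma adjusted p = 6.16e-04), Mcm2 (0.45, 0.00138) and Mcm5 (0.62, 0.00150), subunits of the replicative helicase, and the cyclin Ccna2 (0.52, 0.00115). With median-of-ratios scaling 18 of the 27 were higher and none lower, beside 8.50% and 10.0% of all tested genes. With the block 26 were higher and none lower, beside 46.6% and 15.9% of all tested genes. Without 1 library 16 to 21 of the 27 were higher and none lower. Among the members, the cell cycle genes Gtse1 and Ckap2 were among the largest increases, and without this pair 12 of the other 28 targets were higher and 2 lower, with a median change of 0.17. Whether more dividing cells or more RNA per dividing cell lay behind such values cannot be told apart in bulk samples.

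Btg2, Plk2 and Plk3 are also immediate-early genes, which growth factors induce within minutes of stimulation. Of the 27 genes of that list that are no members, 23 were lower, 1 was higher and 3 had no call, with a median change of -1.08. Over all tested genes 6.77% were lower and 17.6% higher. With the block 24 of the 27 were lower and 2 higher, beside 15.9% and 46.6% of all tested genes. Examples from the list by smallest p were Fos (-1.50, limma adjusted p = 2.54e-05), Dusp6 (-1.28, 3.03e-05), Ptgs2 (-1.44, 5.22e-05) and Nr4a1 (-2.79, 6.20e-05). Plk3 and Btg2 were lower with that list and Plk2 was higher. Sesn2 is also a target of ATF4. Of the 24 other ATF4 and CHOP targets 2 were higher and 2 were lower, beside 17.6% and 6.77% of all tested genes. The median change of these 24 targets was 0.04. None was higher without RCE replicate 2 or 3 or control replicate 2 or 3, 1 was higher without control replicate 1, and 1 was lower without RCE replicate 2 or control replicate 2 or 3. With the block 7 of the 24 were higher and 6 lower, beside 46.6% and 15.9% of all tested genes. Under median-of-ratios scaling none was higher and 3 were lower, beside 8.50% and 10.0% of all tested genes. The 4 called without block or scaling were Slc3a2 (0.19, adjusted p = 0.0261), Pycr1 (0.17, 0.0250), Cebpb (-0.52, 0.0204) and Atf3 (-1.08, 0.00115). Of these Atf3 stands on the immediate-early list too.

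**Figure D4:**
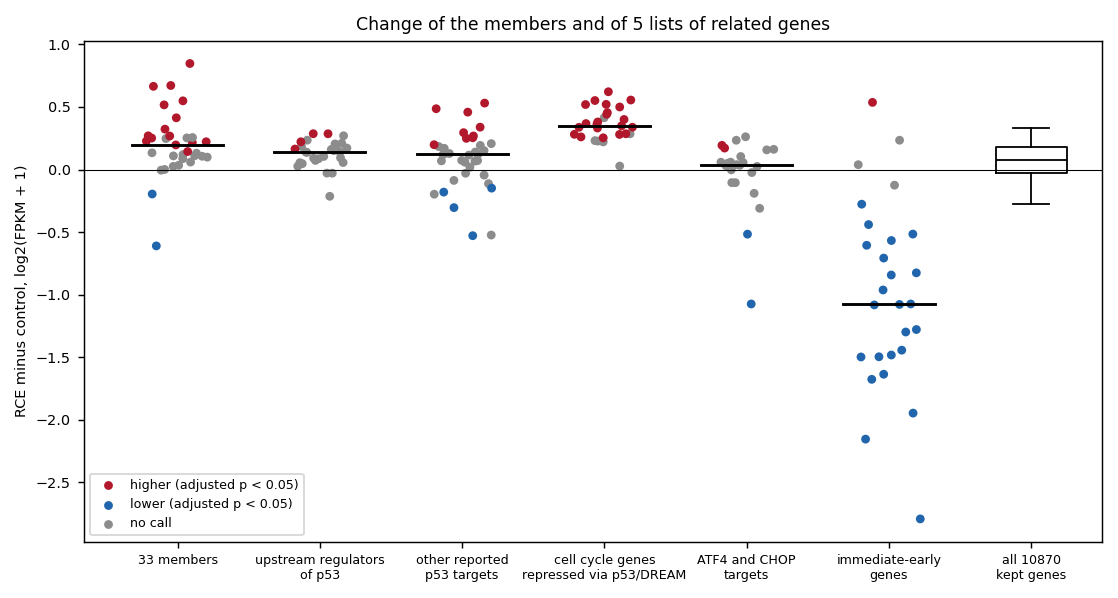
Change of each tested gene (points, RCE minus control on the log2(FPKM + 1) scale, red for higher, blue for lower, grey for no call) among the members and among genes of 5 related lists that are no members, with the list median as a black line, and the spread of all tested genes (box of quartiles, whiskers at the 5th and 95th percentiles). The members have a median of 0.20, the cell cycle genes 0.35 and the immediate-early genes -1.08, against 0.08 for all tested genes.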

How the data were processed

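RNA taken with TRIzol was made into stranded messenger RNA libraries (TruSeq Stranded mRNA), per the labels' protocols. The authors deposited 1 table with FPKM per gene and library, a unit taken from the submitters' processing notes and the values, since the header names none. Those notes name the build mm10 and the tools Cufflinks, Cuffdiff 2.2.1 and STAR 2.5.4, but not their roles. The sources used here do not give the annotation, filters or strand use in counting. Since FPKM are not counts, count models were avoided.

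The 3 RCE and 3 control libraries were compared by limma 3.58.1 in R 4.3.3. Values were log2(FPKM + 1), the prior variance had an intensity trend, and the 10870 genes that averaged 1 FPKM or more were tested, 2-sided, with Benjamini-Hochberg adjustment over all of them and a threshold of 0.05. All 33 members passed the filter. Members, roles and lists were chosen with earlier results of these data known, so no set test was made. Genes outside the members were named by the smallest p, up to 4 per list.

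Deviations of same-numbered libraries from their group means correlated at 0.918, 0.62 and 0.681. Numbers were taken to pair the libraries, although numbers 2 and 3 correlated more when crossed (0.724 and 0.771). These values match replicate 1 across the groups but do not show how replicates 2 and 3 pair. Results of a fit with this block stand beside each member whose call it changes and beside the counts of the related lists.

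Depth came from low values of genes with 1 annotated transcript of up to 2000 bases, where FPKM times length and depth gave whole fragments (within 0.1) for 100% of 360 to 388 values per library. Coordinates, exon overlaps and shared 50-base words came from GENCODE M21 (mm10), which held all 21853 identifiers. Promoter windows came from RefSeq (GRCm38.p6, the same assembly). Alternatives were 2 other pseudocounts, 2 other filters, 2 scalings, no trend, the block, and libraries left out.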

Additional observations from a re-analysis of the deposited data

How the results depend on the processing

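Over all tested genes, 1910 were higher and 736 lower. The counts were 1964 and 909 with no filter on low values, and 867 and 485 with a minimum mean of 5 FPKM. They were 924 and 1090 with median-of-ratios scaling, 785 and 857 with quantile normalization, and 5060 and 1730 with the replicate block. Leaving out 1 library gave 685 to 2040 higher and 394 to 734 lower genes, and leaving out both replicate 1 libraries gave 4364 and 1480. Members called higher, 15, became 13 with no filter on low values and 11 with a minimum mean of 5 FPKM, which took Pidd1, Sesn1, Fas and Ddb2 out of the test. They became 8 with median-of-ratios scaling and 24 with the replicate block, ran from 6 to 15 with 1 library left out, and were 23 without both replicate 1 libraries. Members called lower, 2, ran from 1 to 2 with 1 library left out. The block added 9 members to the 17 called and ended none of those calls. Quantile normalization kept 14 of the 17 calls and ended those of Xpc, Sesn1 and Tigar. Of the members near 0, Mdm2, Bax, Bbc3, Perp and Rrm2b changed sign under an alternative, and so did Ddb2, with no call in any case. With median-of-ratios scaling Bax was at -0.052, Bbc3 at -0.057, Perp at -0.077 and Rrm2b at -0.015. With quantile normalization Mdm2 was at 0.0040, Bbc3 at -0.0068, Perp at -0.078, Ddb2 at -0.0054 and Rrm2b at -0.031. With 1 library left out, Mdm2 ran from -0.0306 to 0.0133, Bax from -0.0512 to 0.119, Bbc3 from -0.0642 to 0.141 and Perp from -0.0468 to 0.0467, and without both replicate 1 libraries Perp was at -0.00082. The causes were not tested. Counts of the related lists were recomputed under the same alternatives, a step added after seeing the data. Depth gave each member at least 179 fragments per library on its longest annotated transcript, and each group had 3 libraries.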
